A study of Mus musculus with 8 samples.

Results

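The Schlafen genes described here are Slfn1, Slfn2, Slfn4 and Slfn5, which were taken by name from the rows of the deposited table of unique molecular identifier (UMI) counts, 4 of the 8 Slfn rows among 16889 genes. They were selected on their family name with earlier results of these data known, and the levels in cKO and control mice are taken to be among those results. The difference between tamoxifen and corn oil is therefore given for these 4 genes as a description without a test. Whether their levels in the classes of cells were also known at the choice is not recorded. The tests between classes may therefore not be independent of the choice. Cells of the colonic lamina propria that carried CD11b together with CCR2 or CD64 were sorted from 8 female CD98hcΔCX3CR1 littermates and sequenced as single cells, each mouse in its own well. All 8 mice carried floxed CD98hc alleles and the Cx3cr1-driven CreER-YFP transgene. The 4 control mice (replicates 1 to 4) received corn oil, and the 4 cKO mice (replicates 5 to 8) received 100 µl of 20 mg/ml tamoxifen into the peritoneum, both on 5 consecutive days, with the cells taken on day 7. CreER acts only in cells that expressed Cx3cr1, and tamoxifen was given only to the cKO mice, so effects of tamoxifen itself and of the deletion cannot be told apart.

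Schlafen proteins are a family of vertebrate proteins that restrain cell growth and take part in defence against viruses, in part by acting on transfer RNA. Mouse members are grouped as short (Slfn1 and Slfn2), intermediate (Slfn3 and Slfn4) and long forms (Slfn5, Slfn8, Slfn9 and Slfn14), of which the long forms carry a helicase-like domain. Several of them are induced by type I interferon, and in mice Slfn2 keeps T cells and monocytes quiescent while Slfn4 is known from activated myeloid cells.

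In the cells kept, the level of all 4 genes was higher in every cKO mouse than in every control mouse, from 1.97 times for Slfn2 to 17.3 times for Slfn4 as ratios of group means. Of all 11387 genes fitted, 4% were apart in this way. Nothing is read from this for the members, which were chosen with that contrast known. In control mice, Slfn1 and Slfn2 were highest in monocyte-like cells, and that difference from macrophage-like and from dendritic cell-like cells passed the test. For Slfn2, the only control sum of inflammatory myeloid-like cells lay within the range of monocyte-like cells, and that pair of classes was not tested. Among the classes with UMIs in both groups that could be contrasted over sums of at least 20 cells, the fitted fold between cKO and control mice was largest in monocyte-like cells for Slfn4 and in dendritic cell-like cells for Slfn1, Slfn2 and Slfn5, an order that was not itself tested.

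The family lies in a cluster on chromosome 11 of GRCm38 (mm10) that spans 335378 bases, from 82951349 to 83286726. Slfn5 (ENSMUSG00000054404) occupies 82951349 to 82964840 at its start. Slfn2 (ENSMUSG00000072620) lies at 83065112 to 83070678, Slfn1 (ENSMUSG00000078763) at 83116849 to 83122670 and Slfn4 (ENSMUSG00000000204) at 83175186 to 83190216. All 4 are on the plus strand, while Slfn9 and Slfn8, on the minus strand, lie between Slfn5 and Slfn2. Because the reads cover the 3′ part of transcripts, stretches of 58 bases (the read length) were compared with all other transcripts of the annotation. In the last 500 bases of the transcripts of Slfn1, Slfn2, Slfn4 and Slfn5, 0% of these stretches also occurred in another gene. Over whole transcripts the share was 0.166% for Slfn1, 3.30% for Slfn2, 7.67% for Slfn4 (mostly with Slfn3) and 2.75% for Slfn5. Antisense genes overlap Slfn5 (Slfn5os) and Slfn2 (Gm20234), and the study's Cell Ranger summaries list reads antisense to a gene apart from the sense reads.

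Since the 4 genes differed in the same direction between cKO and control mice, the windows of 250 bases before to 50 bases after their RefSeq starts (GRCm38.p6, plus strand) follow here in lower case with matches of the motifs searched in capitals. The windows are chr11:83116570-83116869 for Slfn1, chr11:83064862-83065161 for Slfn2, chr11:83174936-83175235 for Slfn4 and chr11:82951852-82952151 for Slfn5.
Slfn1: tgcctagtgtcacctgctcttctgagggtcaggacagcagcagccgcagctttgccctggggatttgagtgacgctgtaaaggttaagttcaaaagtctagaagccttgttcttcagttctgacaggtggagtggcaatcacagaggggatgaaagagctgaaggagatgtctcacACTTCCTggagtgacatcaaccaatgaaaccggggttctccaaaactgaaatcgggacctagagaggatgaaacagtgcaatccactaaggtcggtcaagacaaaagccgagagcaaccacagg
Slfn2: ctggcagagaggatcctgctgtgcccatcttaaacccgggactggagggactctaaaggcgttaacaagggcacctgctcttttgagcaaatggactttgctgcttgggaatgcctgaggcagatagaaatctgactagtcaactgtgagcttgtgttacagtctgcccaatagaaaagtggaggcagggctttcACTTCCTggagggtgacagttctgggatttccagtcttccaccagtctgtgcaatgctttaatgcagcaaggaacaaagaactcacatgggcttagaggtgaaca
Slfn4: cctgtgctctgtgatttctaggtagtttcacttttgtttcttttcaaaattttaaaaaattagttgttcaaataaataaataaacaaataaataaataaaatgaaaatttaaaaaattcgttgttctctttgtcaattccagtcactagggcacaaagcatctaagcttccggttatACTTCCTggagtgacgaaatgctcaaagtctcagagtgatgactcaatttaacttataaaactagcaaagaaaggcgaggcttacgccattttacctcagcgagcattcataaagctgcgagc
Slfn5: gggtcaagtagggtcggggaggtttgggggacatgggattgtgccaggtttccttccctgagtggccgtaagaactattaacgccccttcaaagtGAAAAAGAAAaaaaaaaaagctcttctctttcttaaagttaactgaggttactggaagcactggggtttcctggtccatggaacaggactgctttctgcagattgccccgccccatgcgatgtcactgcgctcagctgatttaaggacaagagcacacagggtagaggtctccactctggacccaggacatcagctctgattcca

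These motifs were looked for on both strands, none of which overlapped another here. An interferon-stimulated response element-like run, GAAANNGAAA, occurred in the Slfn5 window at position −155 from the start and in none of the windows of Slfn1, Slfn2 and Slfn4, and it was held by 3.44% of 32851 RefSeq windows of the same length. The ETS-like run AGGAAGT occurred, on the opposite strand, in the windows of Slfn1 at −74, Slfn2 at −55 and Slfn4 at −73 but not in that of Slfn5, and 9.35% of all windows held it. A STAT-type palindrome, TTCNNNGAA, was in none of the 4 windows and in 8.30% of all windows. Around the ETS-like run the windows of Slfn1 and Slfn4 shared ACTTCCTGGAGTGAC, which 2 of the 32851 windows held, and those of Slfn2 and Slfn4 shared ACTTCCTGGAG, which 24 windows held. These matches describe letters in the windows, and binding there was not measured.

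After the filters of the study's methods, 3213 of 5947 barcodes were kept, 1863 from control and 1350 from cKO mice, with 497531 to 3762314 UMIs per mouse. Control replicate 3 and cKO replicate 5 were small, with 85 and 83 cells. Of 5921 distinct barcodes, 25 occurred in more than 1 library. Slc3a2, which encodes CD98hc, was at 233 to 493 CPM (UMIs of the gene per 1000000 UMIs) in control and 291 to 357 CPM in cKO mice (log2 fold change 0.02, SE 0.21, adjusted p = 0.976 by edgeR's quasi-likelihood test). A 3′ count does not check the deletion of an internal exon. EYFP, the reporter carried with CreER, was at 35.0 to 86.1 CPM in control and 14.1 to 46.2 CPM in cKO mice (log2 fold change −1.03, SE 0.33, adjusted p = 0.104, but 0.0338 without the filter on low counts and 0.0276 without control replicate 4). Clustering without the family and the interferon genes gave 9 clusters, 6 of which were named from marker genes, while cluster 2 (with Cebpb and Ier5 among its leading genes), cluster 4 (led by Sirpb1c, Ccl3 and Ccr2) and cluster 6 (led by Ccl8 and Pf4) kept their numbers. In control mice the 15 macrophage markers summed to 54258 to 73410 CPM in cluster 6 and to 63630 to 71999 CPM in macrophage-like cells. Macrophage-like cells are therefore not all cells with high macrophage markers. The sort was aimed at monocytes and macrophages, and dendritic cell-like cells (526), lymphoid-like cells (180) and stromal-like cells (86) were also found.

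Slfn1, a short family member, was counted at 19.9, 17.1, 11.9 and 28.9 CPM in control replicates 1 to 4 and at 76.4, 90.1, 132 and 93.2 CPM in cKO replicates 5 to 8. No control mouse reached the lowest cKO mouse, and the means were 19.5 ± 7.14 CPM (SD, n = 4) in control and 97.8 ± 23.6 CPM (SD, n = 4) in cKO mice. The fitted log2 fold change was 2.38 (SE 0.25).

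Slfn2, the family member linked to quiescence of T cells and monocytes, stood at 263, 240, 238 and 428 CPM in control mice. In cKO mice it was at 454, 544, 735 and 566 CPM. The gap between the groups was narrow, since control replicate 4 at 428 CPM lay just under cKO replicate 5 at 454 CPM. The means were 292 ± 91.1 CPM in control and 575 ± 117 CPM in cKO mice (SD, n = 4 each), with a fitted log2 fold change of 1.08 (SE 0.22).

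Slfn4, the intermediate member known from activated myeloid cells, was near 0 in 3 control mice, with 2.92, 1.83 and 3.39 CPM, and at 11.8 CPM in control replicate 4. The cKO mice had 113, 41.1, 111 and 80.9 CPM. Behind these levels were 54 UMIs in all control cells and 585 UMIs in all cKO cells. Its mean was 4.98 ± 4.58 CPM in control and 86.4 ± 33.5 CPM in cKO mice (SD, n = 4 each), and the log2 fold change of 4.13 (SE 0.50) was the largest of the 4 genes. Without control replicate 4 it was 5.15.

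Slfn5, a long member with a helicase-like domain, varied least among control mice, at 19.4, 15.3, 15.3 and 18.5 CPM. In cKO mice it was at 56.3, 34.5, 44.6 and 38.1 CPM. The groups were again apart, with means of 17.1 ± 2.15 and 43.4 ± 9.59 CPM (SD, n = 4 each) and a log2 fold change of 1.37 (SE 0.19).

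**Figure D1:**
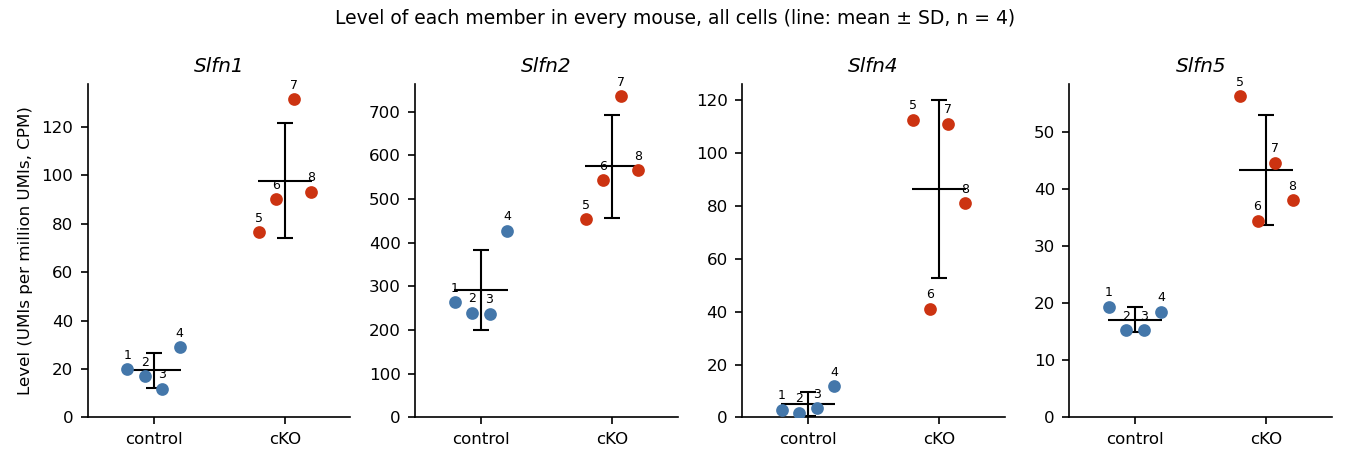
Level of Slfn1, Slfn2, Slfn4 and Slfn5 in CPM over all cells kept, with a point per mouse and the mean of each group as a line, for 4 control (corn oil) and 4 cKO (tamoxifen) mice. For each gene every cKO mouse lies above every control mouse, with the smallest gap for its level in Slfn2 (428 against 454 CPM). Of all genes fitted 4% were apart in this way, and nothing is read from this for the members.

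Over all 11387 genes fitted, 2.99% were higher and 1.48% lower in cKO mice at an adjusted p under 0.05, and in 4% of genes every cKO mouse was above every control mouse. The levels of all 4 members did not overlap in this way, and nothing is read from this because the members were chosen with that contrast known. These levels are sums over cells, in which more cells of a class with a high level and more RNA of the gene per cell cannot be told apart, and the makeup of the mice differed. Inflammatory myeloid-like cells were 0 to 7.10% of the cells of a control mouse and 12.05 to 49.6% of those of a cKO mouse. Monocyte-like cells were 2.35 to 6.74% in control and 13.3 to 16.9% in cKO mice, and macrophage-like cells 5.10 to 28.7% and 2.48 to 8.43%. Dendritic cell-like cells made up 19.8 to 27.5% of the cells of a control mouse and 4.75 to 9.45% of those of a cKO mouse. Cluster 6, also high in macrophage markers, was 4.95 to 10.6% in control and 5.79 to 10.8% in cKO mice. The levels were therefore also taken class by class, in sums of at least 20 cells per mouse and class.

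In control mice Slfn1 had a steep order of classes. It was at 139, 176 and 196 CPM in the monocyte-like cells of replicates 1, 2 and 4, at 31.0 to 59.3 CPM in cluster 4 and at 10.3 to 26.04 CPM in cluster 2, and these ranges did not overlap. Lymphoid-like cells (7.26 to 17.4 CPM), macrophage-like cells (2.78 to 12.04 CPM) and dendritic cell-like cells (0 to 5.31 CPM) followed, each overlapping its neighbour. No UMI of Slfn1 was found in 142904 UMIs of control cluster 6 or in 333334 UMIs of control stromal-like cells, which allows up to 20.99 and 9.0 CPM at 3 counts. Inflammatory myeloid-like cells had 1 control sum, in replicate 4, at 49.98 CPM, within the range of cluster 4.

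Slfn2 was spread more evenly over the myeloid classes. Monocyte-like cells of control mice held 682, 567 and 766 CPM, above the 336 to 559 CPM of cluster 4, which overlapped the 319 to 509 CPM of cluster 2. Inflammatory myeloid-like cells had 1 control sum, in replicate 4, at 656 CPM, within the range of monocyte-like cells. The ranges then ran on without a gap through cluster 6 (246 to 357 CPM), dendritic cell-like cells (194 to 310 CPM) and macrophage-like cells (170 to 277 CPM), down to lymphoid-like cells (148 to 181 CPM), which overlapped only the last of these. Stromal-like cells were lowest, at 18.0 CPM pooled over the control mice.

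For Slfn4 and Slfn5 the control levels gave less of an order. Slfn4 rested on 11 UMIs (45.7 CPM) in the pooled inflammatory myeloid-like cells of control mice, while all other classes had pooled levels of at most 10.7 CPM. Slfn5 was at 15.3 to 57.8 CPM in monocyte-like cells, at 19.2 to 27.2 CPM in cluster 4 and at 17.7 to 23.7 CPM in dendritic cell-like cells, which overlapped. Macrophage-like cells, at 7.09 to 12.04 CPM of Slfn5, lay below the range of the dendritic cell-like cells.

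In cKO mice the classes of Slfn1 again ran from monocyte-like cells (199 to 233 CPM) through inflammatory myeloid-like cells (78.5 to 143 CPM), cluster 4 (62.2 to 132 CPM), cluster 2, cluster 6 and dendritic cell-like cells (20.9 to 39.8 CPM) to lymphoid-like cells (7.62 to 25.1 CPM), and monocyte-like cells were the only class with a gap to the next. Slfn2 was at 808 to 891 CPM in inflammatory myeloid-like and 746 to 877 CPM in monocyte-like cells, which overlapped and lay above all other classes. Of the classes with sums of at least 20 cells its level was lowest in lymphoid-like cells, at 91.9 to 188 CPM, while stromal-like cells held 1 UMI (10.9 CPM pooled). The Slfn4 ranges of inflammatory myeloid-like cells (101 to 166 CPM), monocyte-like cells (70.1 to 162 CPM), cluster 2 (52.4 to 120 CPM) and cluster 4 (23.9 to 109 CPM) overlapped, and all lay above those of dendritic cell-like (0 to 10.5 CPM) and lymphoid-like cells (0 to 16.3 CPM). Slfn5 showed no gap between dendritic cell-like cells (41.9 to 79.5 CPM) and the myeloid classes, with inflammatory myeloid-like cells at 36.2 to 42.5 CPM.

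**Figure D2:**
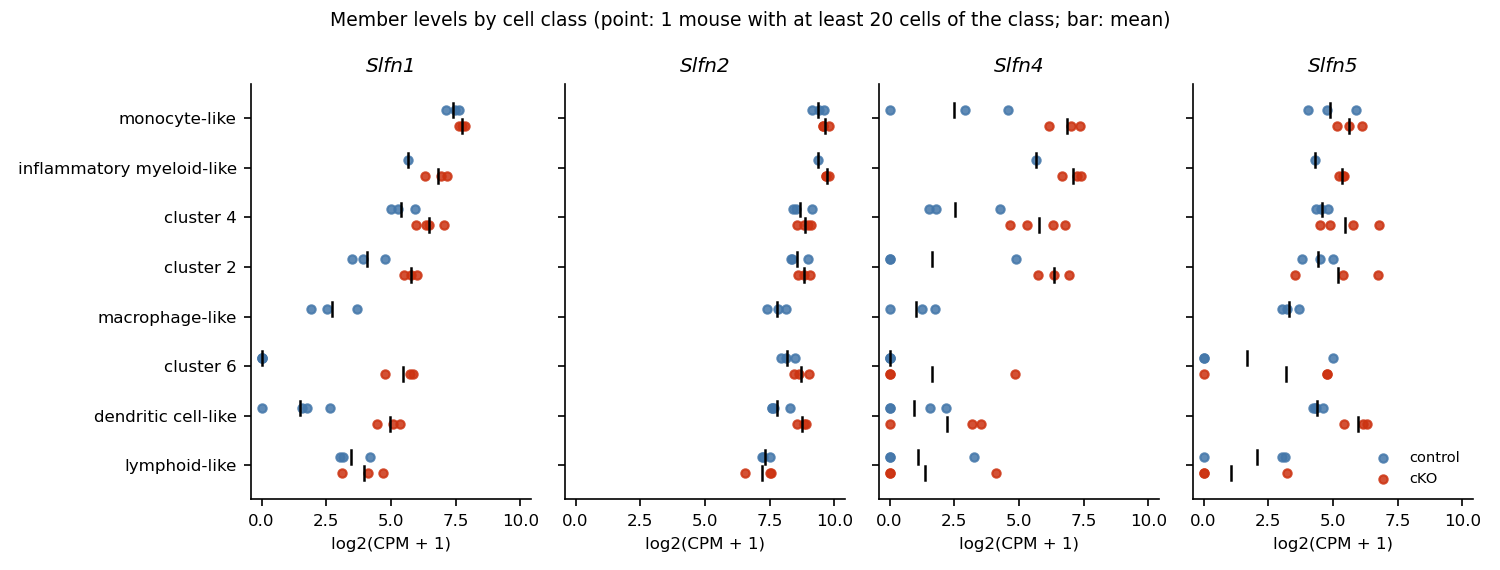
Level of each of the 4 Schlafen genes in CPM by class of cells, with a point per mouse and class sum of at least 20 cells, for control and cKO mice. Slfn1 peaks in monocyte-like cells in both groups (139 to 196 CPM in control, 199 to 233 CPM in cKO mice), whereas Slfn4 is high in the monocyte-like and inflammatory myeloid-like cells of cKO mice.

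Differences between the classes of control mice were tested across 11072 genes with edgeR's quasi-likelihood test, with the mouse as a term and Benjamini-Hochberg adjustment over all genes. Monocyte-like minus macrophage-like cells gave a log2 difference of 5.04 (SE 0.42) for Slfn1 (adjusted p = 9.99e-21). The same contrast was 1.57 (SE 0.19) for Slfn2 (adjusted p = 5.18e-12) and 2.03 (SE 0.59) for Slfn5 (adjusted p = 0.00885). For Slfn4, with 5 UMIs in monocyte-like and 3 UMIs in macrophage-like control cells, it was 1.90 (SE 1.07, adjusted p = 0.293). Of the 4 members, 3 were thus higher in monocyte-like cells, where 6.77% of all genes were. Because class levels may have been known when the members were chosen, this count is given as a description. The Slfn5 difference depended on control replicate 1, without which it was 1.22 (adjusted p = 0.513).

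Against dendritic cell-like cells, monocyte-like cells were higher for Slfn1 by 5.61 (SE 0.37, adjusted p = 5.64e-28) and for Slfn2 by 1.501 (SE 0.18, adjusted p = 1.67e-12) on the log2 scale. Slfn5 differed by 0.87 (SE 0.47, adjusted p = 0.242) and Slfn4 by 2.31 (SE 0.95, adjusted p = 0.0895), neither past the threshold. In this contrast 7.32% of genes were higher. Between macrophage-like and dendritic cell-like cells, Slfn5 was lower in macrophage-like cells, with a log2 difference of −1.16 (SE 0.44, adjusted p = 0.0334), as were 15.8% of genes. Of 16 alternative settings, 10 kept this call, and it was lost without control replicate 1 (−1.18, adjusted p = 0.146) or 2 (−1.08, adjusted p = 0.215). Slfn1 (0.57, SE 0.64, adjusted p = 0.555), Slfn2 (−0.06, SE 0.17, adjusted p = 0.827) and Slfn4 (0.40, SE 1.04, adjusted p = 0.815) did not pass the test between these classes.

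**Figure D3:**
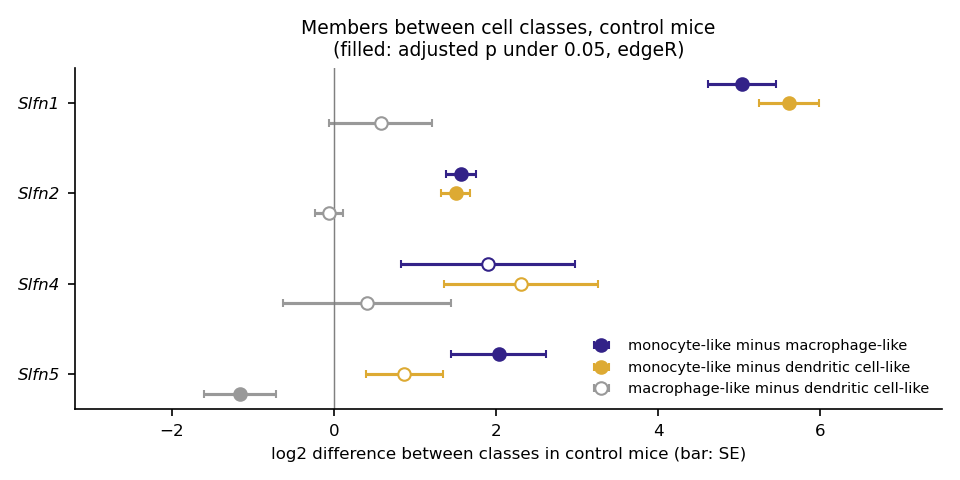
Log2 differences of the 4 Schlafen genes between classes of cells in control mice, with bars of 1 standard error of the edgeR fit and filled points for an adjusted p under 0.05. Slfn1 and Slfn2 lie to the right in both contrasts of monocyte-like cells (5.04 and 5.61 for Slfn1), and Slfn5 lies to the left between macrophage-like and dendritic cell-like cells (−1.16).

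Between cKO and control mice, the monocyte-like cells showed the 4 genes apart from each other. Slfn4 was at 23.1, 0 and 6.55 CPM in the control sums (5 UMIs) and at 70.1, 129 and 162 CPM in the cKO sums, which did not overlap, and the fitted log2 fold change was 3.52 (SE 0.69), or 5.08 without control replicate 1. The pooled ratio was 11.97 with a 95% counting interval from 5.01 to 37.4. Slfn1, at 139 to 196 CPM in control and 233, 214 and 199 CPM in cKO sums, did not overlap either, but with a narrow gap. Its log2 fold change was smaller, at 0.43 (SE 0.27). Those of Slfn2 (0.33, SE 0.22) and Slfn5 (0.65, SE 0.49) were also smaller than that of Slfn4, and none of these was far above its error. In this class 0.117% of 11072 genes were called higher by the edgeR test. The share of all genes whose groups did not overlap was not computed within classes, so nothing is read from such gaps. The summed level of the 9 monocyte markers in these cells was 13210 to 15064 CPM in control and 17513 to 19918 CPM in cKO mice, and its part in the Slfn4 difference was not tested.

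Cluster 4, which held 473 control and 226 cKO cells, showed Slfn1 at 31.0, 59.3 and 37.5 CPM in control replicates 1, 2 and 4. The cKO replicates had 62.2, 81.2, 132 and 87.8 CPM, all above the control sums, with a log2 fold change of 1.18 (SE 0.27). Slfn4 was at 1.88, 2.47 and 18.2 CPM in control and 109, 23.9, 78.0 and 39.2 CPM in cKO sums, also apart, with 2.59 (SE 0.52). Control replicate 4 alone gave 18 of the control UMIs, and without it the Slfn4 change was 4.40. Slfn2 overlapped between the groups (336 to 559 against 373 to 552 CPM) with a log2 fold change of 0.14 (SE 0.21), and that of Slfn5 was 0.89 (SE 0.38). Over all genes 0.542% were called higher by the edgeR test in this cluster, and the share without overlap was not computed here either. The monocyte markers, summed, overlapped in this cluster, at 3482 to 4103 CPM in control and 3279 to 4358 CPM in cKO mice, although Ly6c2 alone was at 197 and 770 CPM pooled.

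In dendritic cell-like cells the groups did not overlap for Slfn1, Slfn2 and Slfn5. Nothing is read from this, since the share of all genes without overlap in this class was not computed. Slfn5 was at 19.1, 17.7, 23.7 and 18.6 CPM in the 4 control mice and at 79.5, 41.9 and 70.2 CPM in cKO replicates 6 to 8, with a log2 fold change of 1.70 (SE 0.37). Its pooled ratio was 3.29 (95% counting interval 2.28 to 4.70, from 78 and 55 UMIs). Slfn1 was nearly absent from these cells in control mice, at 2.38, 1.97, 0 and 5.31 CPM, and was at 39.8, 20.9 and 32.4 CPM in cKO mice, a log2 fold change of 3.24 (SE 0.47) resting on 12 and 27 UMIs. Slfn2 was at 194, 204, 194 and 310 CPM in control and 374, 482 and 456 CPM in cKO mice (0.87, SE 0.21). Slfn4, with 7 and 5 UMIs, had a pooled ratio of 3.33 with a counting interval from 0.833 to 12.2. After thinning each cell to 1000 UMIs, Slfn1 was found in 2.08% of these cKO cells, no higher than the 2.22% of cKO lymphoid-like cells. In this class 0.443% of all genes were called higher by the edgeR test.

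RNA or cells of monocytes could add to these levels, so monocyte markers are given beside them. The 9 markers summed to 1031 to 1797 CPM in the dendritic cell-like cells of control mice and 1654 to 3052 CPM in those of cKO mice, mostly from Plac8, and pooled Ly6c2 was at 24.0 and 169 CPM. Among the dendritic cell-like cells without any Ly6c2 UMI, 382 in control and 60 in cKO mice, Slfn5 was at 17.1 and 53.6 CPM and Slfn2 at 218 and 413 CPM. All dendritic cell-like cells gave 18.7 and 61.5 CPM for Slfn5 and 229 and 409 CPM for Slfn2. Slfn1 in these cells was at 2.71 CPM in control and 17.9 CPM in cKO mice, from 10 and 8 UMIs, where all dendritic cell-like cells gave 2.88 and 30.2 CPM. UMIs of Slfn1 and Slfn4 numbered 727 and 585 in all cKO cells and 27 and 5 in the cKO dendritic cell-like cells. They numbered 248 and 146 in cKO monocyte-like cells and 274 and 324 in cKO inflammatory myeloid-like cells. With 5 UMIs of Slfn4 in dendritic cell-like cells, nothing is read from these counts. The 60 cKO cells without Ly6c2 held 447981 UMIs, against 894578 in all 100, so they were shallower than the rest. The part of monocyte RNA or cells in these levels was not tested.

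The remaining classes gave little that a description can rest on. In cluster 2 the log2 fold changes were 1.57 (SE 0.63) for Slfn1, 0.22 (SE 0.26) for Slfn2, 2.91 (SE 0.92) for Slfn4 and 1.15 (SE 0.74) for Slfn5, where 0.0723% of genes were called higher. In cluster 6, a cluster of shallow cells, Slfn1 had 0 UMIs in control and 7 in cKO cells. With a floor of 3 UMIs for the control cells, the pooled ratio of Slfn1 was 2.13. The counting interval of the ratio, taken without the floor, began at 1.32. Slfn2 had a log2 fold change of 0.71 (SE 0.33) in this cluster, where 0.19% of genes were called higher. Lymphoid-like cells showed Slfn2 at 156 CPM in control and 153 CPM in cKO mice, pooled, with a log2 fold change of 0.03 (SE 0.31), and in them 0.117% of genes were called higher. The inflammatory myeloid-like cells had only 1 control sum of 20 or more cells and could not be contrasted. In them Slfn4 was at 49.98 CPM in control replicate 4 and at 101 to 166 CPM in 3 cKO mice, and Slfn1 at 49.98 CPM and 78.5 to 143 CPM. Macrophage-like cells of cKO mice, 50 in all, gave no sum of 20 cells, and pooled Slfn2 was at 205 CPM in control and 366 CPM in cKO mice.

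**Figure D4:**
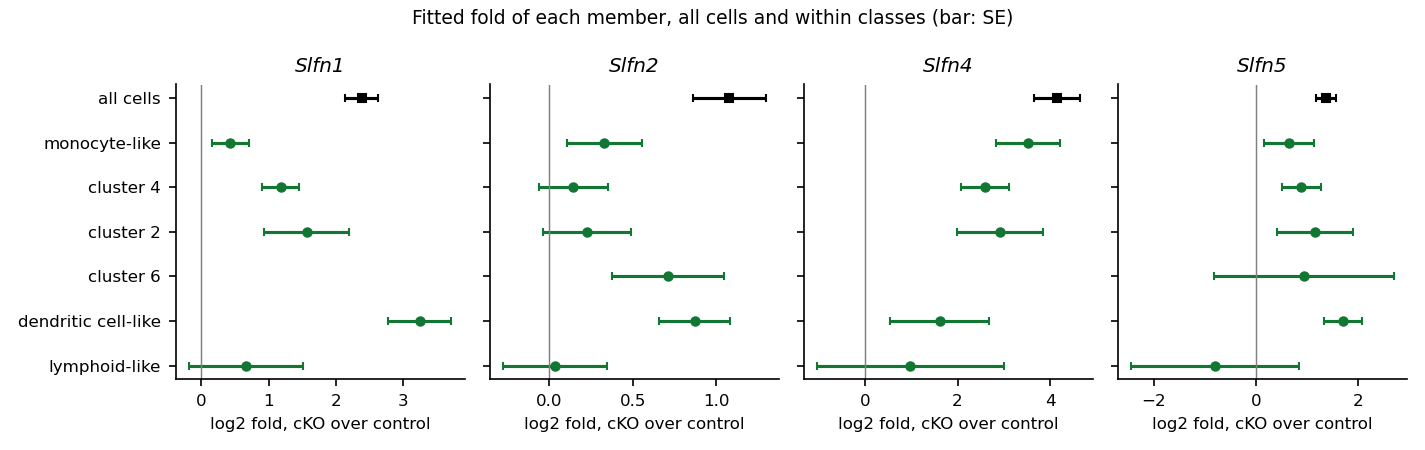
Log2 fold changes, cKO over control, of the 4 Schlafen genes over all cells and within each class that could be contrasted, with bars of 1 standard error of the edgeR fit and no test for these genes. Points fitted against a group without a UMI (Slfn1 and Slfn4 in cluster 6) are left out, and Slfn4 in monocyte-like cells (3.52) and Slfn1 in dendritic cell-like cells (3.24) are the highest within classes.

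The classes that held the UMIs of each gene also differed between the groups. In control mice 43.3% of Slfn1 UMIs came from cluster 4 and 36.2% from monocyte-like cells, and in cKO mice 37.7% came from inflammatory myeloid-like and 34.1% from monocyte-like cells. Of the Slfn4 UMIs in cKO mice, 55.4% came from inflammatory myeloid-like cells. Replicate 7 supplied 240 of the 421 cKO cells of that class. For Slfn5 the class that gave most UMIs in control mice was the dendritic cell-like cells, with 41.7%.

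When each class was given the same weight in every mouse, using the 7 classes found in replicates 1, 2, 4, 6, 7 and 8, the levels lay closer together for Slfn1 but hardly for Slfn5. The ratio of cKO to control means for Slfn1 was 4.63 with each mouse's own makeup and 2.06 with the fixed makeup (34.1 ± 5.86 against 70.1 ± 10.38 CPM, SD, n = 3 each). For Slfn2 the ratios were 1.67 and 1.39, and for Slfn4 11.2 and 7.16. Slfn5 gave 2.35 with the mice's own and 2.28 with the fixed makeup. At the fixed makeup every cKO mouse stayed above every control mouse for all 4 genes, although with graph clustering this was lost for Slfn2. The share of all genes without overlap at a fixed makeup, with n = 3 each, was not computed, so nothing is read from this. Inflammatory myeloid-like cells, which were too few in control replicate 2, are not among these 7 classes.

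**Figure D5:**
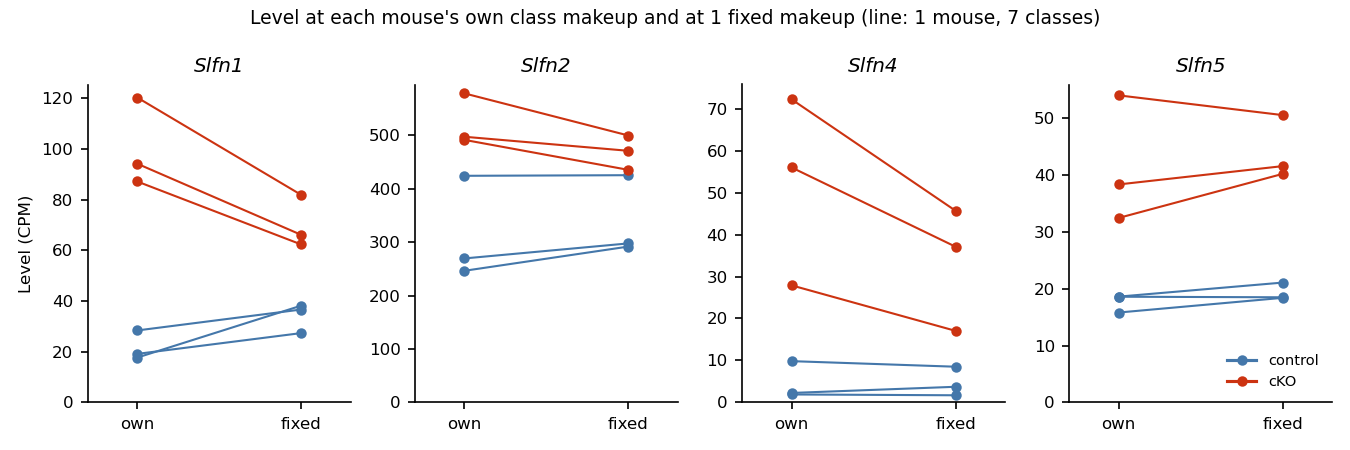
Level of each Schlafen gene per mouse in CPM, with the mouse's own makeup of 7 classes and with the same makeup for all, for control replicates 1, 2 and 4 and cKO replicates 6, 7 and 8. The Slfn1 groups move together (ratio 4.63 to 2.06), while those of Slfn5 hardly do (2.35 to 2.28).

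Shares of cells with a UMI were compared after each cell was thinned to 1000 UMIs, which left out 99 control and 79 cKO cells. Slfn1 was then found in 2.78% of control cells and 9.44% of cKO cells, and without thinning in 8.96% and 30.9%. In stromal-like control cells, a class taken as lacking the gene, 0 of 65 cells had a UMI, which allows a share of up to 4.62%. Monocyte-like cells held Slfn1 in 17.1% of control and 16.7% of cKO cells, hardly apart, at median depths of 4357 and 5483 UMIs against 4885 in stromal-like cells. In dendritic cell-like cells of cKO mice the thinned share was 2.08%, and no expression per cell is read from it at this depth.

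Slfn4 was found in 1.02% of thinned control cells and 8.03% of thinned cKO cells (2.63% and 22.9% without thinning). Its share in monocyte-like cells was 0.952% (1 of 105) in control and 12.3% (25 of 203) in cKO mice, and in inflammatory myeloid-like cells 7.02% and 13.7%. Lymphoid-like cells had 1.15% and 1.11%. Slfn2 was found in 25.2% of control and 41.9% of cKO cells after thinning (62.8% and 77.4% before), and the share in stromal-like control cells was 4.62%. The thinned share of Slfn5 was 2.04% in control and 3.62% in cKO cells (7.84% and 15.8% unthinned), no higher than the 4.62% in stromal-like control cells (3 of 65), so no expression per cell is read from it.

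Few thinned cells held UMIs of several members. None of the 4 was found in 71.5% of control and 48.5% of cKO cells, and 2 members were found together in 42 of 1764 control and 121 of 1271 cKO cells. All 4 were found in 1 cell, from a cKO mouse. Within the inflammatory myeloid-like cells of cKO mice, Slfn2 was found in 62.5% of the 56 cells with Slfn4 and in 53.5% of those without. In the same cells Slfn1 was found in 14.3% of cells with Slfn4 and in 11.6% of those without. These shares are from sparse counts and are given as a description.

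The genes whose levels were most like those of each member were found by Pearson correlation of log2(CPM + 1) over 24 control sums of mouse and class, which share libraries and mice. Slfn1 was most like Atp1b3 (r = 0.88), a subunit of the sodium pump, Samhd1 (0.85), an enzyme that restricts retroviruses, Ccr2 (0.84), the chemokine receptor that monocytes need to leave the bone marrow and a gene of the sort, Hp (0.84), the haemoglobin scavenger haptoglobin, and Fxyd5 (0.81). For Slfn2 the genes were ENSMUSG00000089672 (0.94), Gm49339 (0.94), Ms4a6c (0.93), AB124611 (0.90) and Emb (0.90). Slfn4, at few UMIs, was most like H3f3b (0.77), which encodes a replacement histone, and Nfkbib (0.71), which encodes an inhibitor of NF-κB, followed by Pkm (0.67), Arl5c (0.65) and Tgif1 (0.64). The genes most like Slfn5 were St3gal4 (0.81), Far1 (0.79), Gadd45g (0.79), Jarid2 (0.78) and Lmnb1 (0.77). Over the 22 cKO sums most of these values were lower, at 0.48 for Slfn1 with Atp1b3, 0.09 for Slfn5 with St3gal4 and 0.09 for Slfn2 with Emb, and that of Slfn5 with Gadd45g was −0.19. Those of Slfn4 with H3f3b (0.84), Arl5c (0.77) and Tgif1 (0.78) were higher. Among the members themselves in control sums, Slfn1 and Slfn2 had an r of 0.63, Slfn1 and Slfn4 0.54, and Slfn5 had 0.22 to 0.39 with the others.

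Of the other family genes, Slfn8, a long member, was at 10.6, 16.8, 18.7 and 12.1 CPM in control mice and at 36.2, 30.2, 27.4 and 25.4 CPM in cKO mice. It rose in cKO mice by a log2 fold change of 1.17 (SE 0.22, adjusted p = 0.0139, and 0.0544 without control replicate 1), and in control mice it was higher in monocyte-like than in macrophage-like cells by 2.15 (SE 0.53, adjusted p = 0.00134). Slfn3, an intermediate member with 49 UMIs, had a log2 fold change of 1.74 (SE 0.49, adjusted p = 0.0634), and the long member Slfn9, with 39 UMIs, one of 1.95 (SE 0.57, adjusted p = 0.0758, and 0.0231 without control replicate 3). In control mice Slfn3 had 3 UMIs in monocyte-like cells and 0 in macrophage-like cells. The fitted log2 difference of 4.45 (SE 1.56, adjusted p = 0.0430 by edgeR's quasi-likelihood test) is therefore against a class without a UMI. Counts of these 3 genes are uncertain, since 21.4%, 10.2% and 14.1% of the 58-base stretches in the last 500 bases of Slfn8, Slfn3 and Slfn9 occur in another gene. Slfn14 had 2 UMIs in all.

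Because Schlafen genes respond to interferon, lists of interferon genes are set beside them, which were drawn up with earlier results of these data known. Of 31 type I interferon-induced genes tested over all cells, 29 rose in cKO mice and 0 fell, with a median log2 fold change of 1.95, against −0.03 over all genes. The largest were Ifi44 (4.34, SE 0.39, adjusted p = 0.000119), Oas3 (3.08, SE 0.25, adjusted p = 7.14e-05), a sensor of double-stranded RNA, and Irf7 (2.97, SE 0.29, adjusted p = 0.000244), a transcription factor of the interferon response. Slfn4, at 4.13, lay near the top of this range and Slfn2, at 1.08, below its median. Of 18 genes induced by interferon gamma, 6 rose and 1 fell, with a median of 0.91, and Gbp6 (2.12, SE 0.29, adjusted p = 0.00252), Iigp1 (2.11, SE 0.33, adjusted p = 0.00580) and Cxcl10 (1.31, SE 0.21, adjusted p = 0.00623) were the largest. Among 14 receptors, kinases and transcription factors of the pathway 3 rose and 1 fell, with a median of 0.07. Stat2, a transcription factor that carries the type I interferon signal, rose (0.85, SE 0.19, adjusted p = 0.0270), and Irf8 fell by 0.89 on the log2 scale (SE 0.18, adjusted p = 0.0204). The calls of Stat2 and Irf8 were lost when single mice were left out, with adjusted p of 0.0690 and 0.0669 without control replicate 2. Of 10 genes listed as interferon ligands, among them the receptor gene Il28ra, only 2 were present in the deposited counts. Neither had enough counts to be tested.

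Within classes the type I list and the Schlafen genes can be read side by side. In monocyte-like cells 2 of the 31 type I genes (Ifi27l2a and Irf7) rose, with a list median of 0.51, where Slfn4 stood at 3.52 and Slfn1 at 0.43. In cluster 4, 15 of 31 rose with a median of 1.43, beside 2.59 for Slfn4, 1.18 for Slfn1 and 0.14 for Slfn2. In dendritic cell-like cells 15 of 31 rose with a median of 1.74, beside 1.70 for Slfn5 and 3.24 for Slfn1. In lymphoid-like cells 4 of 31 rose with a median of 2.01, beside 0.03 for Slfn2. The differences between these values were not tested.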

How the data were processed

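UMI counts per gene and cell were deposited by the authors as whole numbers in a merged table of 5947 barcodes and 16889 genes. Per the labels and the study's methods the reads were processed with Cell Ranger and STAR 2.5.3a on mm10 with EYFP added, merged without down-sampling, and used in R (3.5.0 in the labels, a later release in the methods). Counts of a 3′ kit depend on the capture of each transcript's end, so levels were compared between mice and classes for a gene and not between genes. Each column of cells was joined to its mouse by its well, and 16801 genes had a symbol.

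Cells with a log10 UMI count of at least 2.8, a log10 gene count of at least 2.6, no more than 5% mitochondrial UMIs and none from 4 haemoglobin genes were kept, after the study's methods, with removed barcodes (2734) used only where stated. Scrublet (scanpy 1.11.5) marked 73 cells as doublets, 24 of them in cKO replicate 5, which were kept except in an alternative. Cells were normalized with scran 1.30.0 and clustered by Ward's method into 9 clusters without the Schlafen and interferon genes, and clusters were named from marker lists where at least 3 markers were among the 10 leading genes. UMIs were summed per mouse and class and tested with edgeR 4.0.16 (quasi-likelihood, TMM, false discovery rate 0.05, genes above 1 CPM in at least 3 sums and found in at least 20 cells), run in R 4.3.3. The contrast of cKO and control was fitted without a mouse term and the contrast of classes with one. Standard errors were taken from the F statistic. Counting intervals are exact 95% intervals, and where a group had no UMI a floor of 3 was used. Intervals and floors cover counting error only. A mouse is the replicate, and 1 well was run per mouse. The scripts were tested on simulated data.

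The members, the lists and the tests were chosen with earlier results of these data known. The genes named are the members, the rest of the family, Slc3a2 and EYFP as checks of the labels, the marker genes, the 5 genes most like each member among those of at least 50 CPM, and from each list the 3 largest changes past the threshold whose groups did not overlap, apart from some genes that are not reported here. Positions are from GENCODE vM21 (GRCm38), and promoter windows from RefSeq. Alternatives were DESeq2 1.42.0, no filter on low counts, doublets left out, small libraries left out, all barcodes, other clusterings, other minimum cell numbers, no mouse term, other thinning and each mouse left out. A likeness over cKO sums and the dendritic cell-like cells without Ly6c2 were added after the data were seen.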

Additional observations from a re-analysis of the deposited data

Results flagged for a closer look

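Slfn2 in control replicate 4 stood at 428 CPM over all cells, far above the other control mice at 238 to 263 CPM, and Slfn4 in the same mouse at 11.8 CPM, above the other control mice at 1.83 to 3.39 CPM. In this mouse 7.10% of the cells were inflammatory myeloid-like, against 0 to 2.49% in the other control mice, and the part of this in both levels was not tested. Slfn9 in control replicate 3, a library of 85 cells, stood at 5.09 CPM on 3 UMIs, above the other control mice at 0.532 to 1.22 CPM. Of the 22 groups of 4 mice examined in this way, chance marks about 1 in 20.

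Slfn4 was also found in the barcodes that the cell filters removed, which the comparisons did not use, at 161 CPM in cKO mice (98 UMIs) and 6.69 CPM in control mice (5 UMIs). Every cKO mouse was above every control mouse in these barcodes for Slfn4 but not for Slfn1, Slfn2 or Slfn5. The share of all genes without overlap in these barcodes was not computed, so nothing is read from this.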

How the results depend on the processing

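No paired analysis was possible because the control mice carry replicate numbers 1 to 4 and the cKO mice 5 to 8, so the groups share no number. Over all cells the 4 Schlafen genes kept their direction in all 13 alternatives. Leaving out each mouse in turn gave 2.17 to 2.605 for Slfn1, 0.92 to 1.305 for Slfn2, 3.78 to 5.15 for Slfn4 and 1.29 to 1.48 for Slfn5 on the log2 scale. The count of genes higher in cKO mice then ran from 104 to 422 (117, 104, 139 and 176 without replicates 1, 2, 7 and 8) and of those lower from 41 to 290 (49, 41, 290, 48 and 91 without replicates 1, 2, 4, 7 and 8), and lower genes numbered 314 without the low-count filter and 103 without doublets, against 341 and 169. Calls within all classes (203) became 366 with DESeq2, 516 without the filter and 109 to 275 without single mice (109, 123, 127 and 110 without replicates 1, 2, 7 and 8). Against no UMI in control cluster 6, DESeq2 gave 3.48 for Slfn1 and 1.59 for Slfn4, and the log2 fold change of Slfn4 there ran from 0 to 5.41 without single mice. In other classes, leaving out single mice moved the log2 fold change of Slfn4 most, from 2.13 to 7.60 in cluster 2, 2.01 to 4.40 in cluster 4 (both highest without replicate 4), 3.05 to 5.08 in monocyte-like and −2.83 to 3.76 in lymphoid-like cells, and that of Slfn5 from 0.063 to 5.10 in cluster 6, −3.73 to −0.29 in lymphoid-like and 0.35 to 1.39 in monocyte-like cells. Slfn2 ran from 0.36 to 0.89 in cluster 6, −0.02 to 0.38 in cluster 4 and −0.26 to 0.26 in lymphoid-like cells. Of the 31 type I genes 20 to 30 rose without single mice, of the interferon gamma genes 3 to 8 (3 without replicate 1 or 2) and of the receptors and factors 1 to 3 (1 without replicate 1, 2, 7 or 8).

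Between classes, Slfn1 and Slfn2 kept their calls for monocyte-like cells in all 16 alternatives. Slfn2 between macrophage-like and dendritic cell-like cells turned to 0.22 with DESeq2, 0.088 with graph clustering and 0.11 with clustering on all genes, and ran from −0.23 to 0.0044 without single mice, never past the threshold. For Slfn4 between monocyte-like and dendritic cell-like cells the test was passed with DESeq2 (2.68) and clustering on all genes (2.74), as without replicate 2 (2.90) or 4 (3.14), and the value ran from 0.031 to 3.14 without single mice, and for monocyte-like minus macrophage-like cells from −0.052 to 2.82. Slfn5 between macrophage-like and dendritic cell-like cells missed the threshold with DESeq2 (−0.91), without the filter (−1.10), with graph clustering (−0.94) and with no replicate block, that is, no mouse term (−1.18), and ran from −1.22 to −1.08 without single mice. Its monocyte-like minus macrophage-like difference ran from 1.22 to 2.20. Slc3a2 ran from −0.10 to 0.24 without single mice and was at −0.070 without doublets and −0.047 without the small libraries. The cause of these shifts was not tested.

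Thinning to 600 UMIs, which keeps fewer UMIs per cell, gave shares in cKO mice of 5.41% for Slfn1, 30.1% for Slfn2 and 4.22% for Slfn4 and a share of 0.859% for Slfn5 in control mice. Without single mice the Slfn4 share ran from 0.562% to 1.25% in control and 6.81% to 8.88% in cKO mice, and the Slfn2 share from 21.7% to 27.6% in control mice. Unthinned shares are in the report and, in order of Slfn1, Slfn2, Slfn4 and Slfn5, were 8.96%, 62.8%, 2.63% and 7.84% in control and 30.9%, 77.4%, 22.9% and 15.8% in cKO mice. At a fixed makeup the log2 ratio of Slfn5 (1.19) was 1.03 with equal weights and 1.04 with clustering on all genes. Without single mice it ran from 0.90 to 1.26, and that of Slfn4 from 2.03 to 3.62. Both low ends were without control replicate 2, where 8 classes were used in place of 7, so the makeup changed as well. Over cKO sums the likeness of Slfn1 to Atp1b3 was 0.48, of Slfn2 to ENSMUSG00000089672 0.75 and of Slfn5 to St3gal4 0.091. Slfn4 and Slfn5 in control classes rest on 0 to 78 UMIs, and differences there were not detectable at this depth unless large.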
